A study of Mus musculus with 24 samples.

Results

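Recurrent intergenic H3K27me3 regions are stretches of the mouse genome outside protein-coding genes in which peaks of the same histone mark were called again and again across cultures. The peaks of all 24 CUT&RUN libraries (247296 peaks) were merged where they overlapped, which gave 80727 regions. Of these, 43903 overlapped neither the body of a protein-coding gene nor the 3 kb on each side of a protein-coding 5′ end. The 3931 of them that held a peak in at least 6 libraries are described here, beside 39972 intergenic regions found in 1 to 5 libraries, 3105 regions at promoters and 2250 in gene bodies with at least 6 libraries. The regions were chosen by their peak calls in these same libraries, so their recurrence, width and enrichment are given as a description.

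All libraries came from cultured cerebellar granule neurons (CGNs), the small excitatory neurons of the cerebellum, prepared from CD1-IGS mouse pups, and each replicate pooled the cerebella of litters. A time course was harvested at DIV1, DIV3, DIV5 and DIV7 (days in vitro), with 3 libraries a day. AraC, which stops dividing cells, was given at 1 μM on DIV2, so that the DIV1 libraries alone had not met it. For the drug experiments, 3 cultures with 5 μM GSK-126, an inhibitor of the methyltransferase EZH2, were set against 3 with its vehicle DMSO. Another 3 cultures with 1 μM GSK-J4, an inhibitor of the KDM6 family of demethylases, were set against 3 others with DMSO. The paper reports that H3K27me3 did not change with GSK-J4 at the doses tried, by western blot or by CUT&RUN. Both drugs were added on DIV1 and the cells harvested on DIV5. Peaks describe the cultured cells as a whole, so a change in cell make-up and a change within cells cannot be told apart.

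H3K27me3 is the trimethylated form of lysine 27 of histone H3. Polycomb repressive complex 2 places it through EZH2 or EZH1, and KDM6A and KDM6B remove it. In vertebrates it is best known at CpG-rich promoters of silent developmental genes, and it also spreads over distal elements and gene-poor DNA. Sequence that occurs at several places in the genome is a known difficulty of such assays, because a short read from one copy cannot be assigned to its locus.

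The libraries differed widely in how much was called. They held 4740 to 22832 peaks with a summed length of 1.07 to 6.57 Mb. The 3 GSK-126 lists (1.07 to 2.00 Mb) were all shorter than those of their DMSO controls (3.29 to 4.23 Mb). Read depth is unknown, since the lists carry no read counts. Each comparison is therefore given for all deposited peaks and for lists of equal length, in which every library keeps its most significant peaks up to the shortest summed length of its experiment. Lists of equal length cannot show a loss or gain in the total called.

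Stretches of 200 bases show the sequence of the regions with the most covered length. They were taken from the 6 regions with peaks in all 24 libraries and the largest summed covered length, which are not typical of all 145 such regions (52 mostly repeated, 45 with no repeated word), each centred on the part that most libraries covered. The reference is GRCm38 (mm10), plus strand, and capitals mark CpG pairs, the dinucleotide that DNA methylation acts on and that polycomb targets are often rich in.
Near Col19a1, chr1:24613426-24613625: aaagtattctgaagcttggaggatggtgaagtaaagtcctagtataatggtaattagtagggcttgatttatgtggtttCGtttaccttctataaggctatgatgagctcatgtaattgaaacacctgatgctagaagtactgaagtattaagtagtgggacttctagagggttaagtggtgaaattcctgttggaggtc
Near Tcte2, chr17:13552845-13553044: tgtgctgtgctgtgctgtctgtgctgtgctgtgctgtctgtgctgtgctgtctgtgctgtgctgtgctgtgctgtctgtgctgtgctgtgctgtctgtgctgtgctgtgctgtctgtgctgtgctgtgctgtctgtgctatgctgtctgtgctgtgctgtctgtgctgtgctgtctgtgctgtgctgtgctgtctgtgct
Near Esp38, chr17:39848052-39848251: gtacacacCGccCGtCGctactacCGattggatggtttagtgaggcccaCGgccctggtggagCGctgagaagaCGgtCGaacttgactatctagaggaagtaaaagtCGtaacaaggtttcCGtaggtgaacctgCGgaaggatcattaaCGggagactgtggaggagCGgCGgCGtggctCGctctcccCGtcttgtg
Near Tmem125, chr4:118547555-118547754: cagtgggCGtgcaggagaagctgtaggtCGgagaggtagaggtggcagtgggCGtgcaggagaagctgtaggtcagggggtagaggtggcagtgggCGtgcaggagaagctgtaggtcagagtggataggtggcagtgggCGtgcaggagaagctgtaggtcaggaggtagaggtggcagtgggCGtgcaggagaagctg
Near 2010315B03Rik, chr9:124256515-124256714: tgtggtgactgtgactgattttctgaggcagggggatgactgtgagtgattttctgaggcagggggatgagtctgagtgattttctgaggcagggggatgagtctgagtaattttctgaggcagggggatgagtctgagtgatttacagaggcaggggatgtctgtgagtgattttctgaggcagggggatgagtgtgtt
Near Gm21762, chr13:120223778-120223977: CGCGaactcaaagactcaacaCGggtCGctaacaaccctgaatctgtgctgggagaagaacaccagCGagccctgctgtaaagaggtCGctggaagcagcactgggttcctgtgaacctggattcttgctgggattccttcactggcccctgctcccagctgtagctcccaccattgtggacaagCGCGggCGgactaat
Several kinds of sequence stand among them. The stretches near Tcte2, Tmem125 and 2010315B03Rik are tandem repeats, in which 93.7%, 71.4% and 61.9% of the 12-base words occurred more than once within the 200 bases. The stretch near Col19a1 belongs to a nuclear copy of mitochondrial DNA, and 97.3% of the 50-base words of its 3805-base region were also found in the mitochondrial genome. The stretch near Esp38 lies in the locus of the noncoding genes Gm26917, Gm42418 and AY036118, which is known to carry ribosomal RNA sequence, and it held 17 CpG pairs. The stretch near Gm21762 held 9 CpG pairs and no repeated 12-base word, but 60.5% of the 50-base words of its region were found elsewhere in the genome.

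Most of the 3931 regions were found in few libraries more than the rule asks for. The median was 10 libraries, 2363 regions were found in 6 to 11, 1423 in 12 to 23 and 145 (3.69%) in all 24. At the threshold, 678 regions had a peak in exactly 6 libraries with a median width of 422 bases, and 929 intergenic regions just outside it, in exactly 5, had a median width of 378 bases. The regions were short, with a median width of 562 bases (quartiles 377 and 823.5) against 1031 bases for the recurrent promoter regions and 640.5 for those in gene bodies. A merged region can widen as more libraries add peaks, and the promoter regions had a median of 15 libraries, those in gene bodies 10. Together the 3931 intergenic regions spanned 2.54 Mb. Only 600 (15.3%) reached 1 kb, against 51.8% of the recurrent promoter regions. The widest was the ribosomal locus at chr17:39843932-39848711 (4780 bases), followed by the mitochondrial copy near Col19a1 (3805 bases), a region of 2609 bases 4.44 kb from Iscu, a gene of iron-sulfur cluster assembly, one of 2467 bases 118 kb from Zfp507, and the tandem repeat near Tcte2 (2457 bases).

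**Figure D1:**
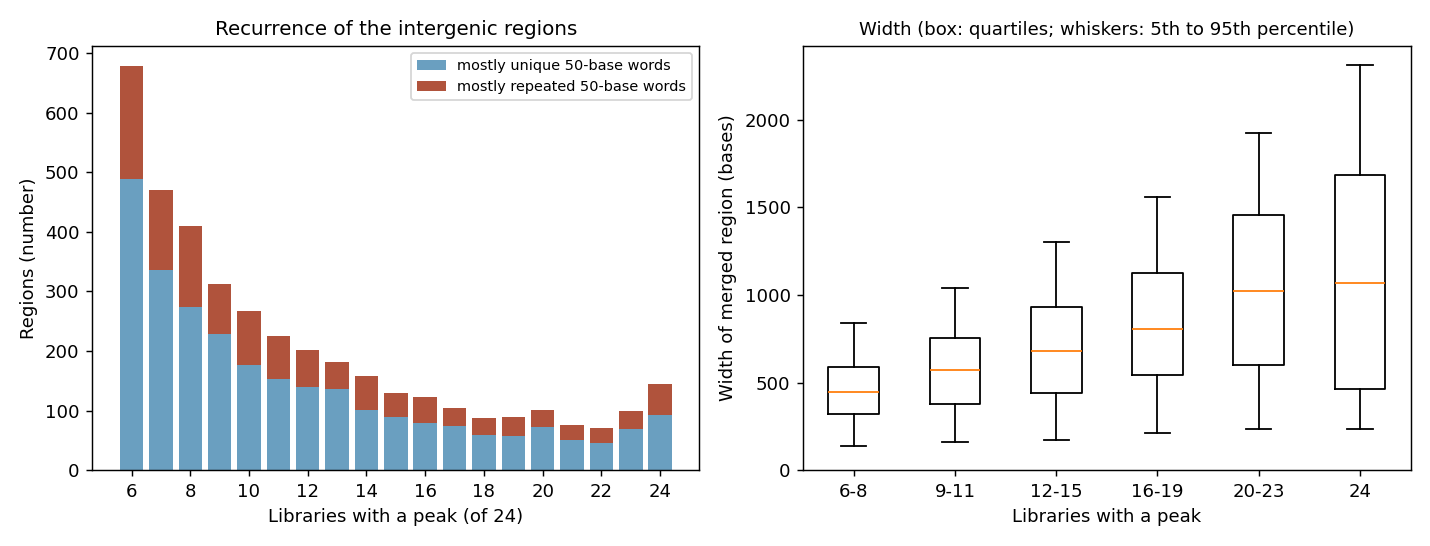
Left, number of recurrent intergenic regions by how many of the 24 libraries held a peak, split by whether more than 50% of their 50-base words occur elsewhere in the genome. Right, width of the merged regions in bases by the number of libraries, with median, quartiles and the 5th to 95th percentile. The number of regions was 678 at 6 libraries and 145 at 24, and the median width was 422 bases at 6, 1092 at 23 and 1070 at 24.

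In distance from genes, the recurrent regions resembled the rest of the intergenic regions. The median gap to the nearest protein-coding gene body was 34 kb (quartiles 11.3 and 109 kb), against 38.7 kb for intergenic regions in 1 to 5 libraries. Between 3 and 10 kb from a gene lay 798 (20.3%), against 17.8%, and the 2 outermost classes of distance in the plot, beyond 100 kb, held 922 (23.5%, against 26.1%) and 120 (3.05%, against 4.2%). The gene lay downstream of the region, with its 5′ end nearer, for 2051 (52.2%). A GENCODE gene that is not protein-coding was overlapped by 803 regions (20.4%), against 15.3% of the less recurrent regions, among them a lincRNA by 451 and a pseudogene by 182. The recurrent regions were also wider, with a median of 562 against 153 bases, and what part width has in these overlaps was not tested. The farthest was a region of 110 bases at chr1:102628209-102628318, 2140 kb from Cdh20, a cadherin gene, with a peak in 11 libraries. The next were 1766 kb from G6pd2, 1728 kb from Sel1l, 1609 kb from Pcdh20 and 1472 kb from Dsel, and each of these 4 held repeated sequence in at least 93.9% of its words.

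**Figure D2:**
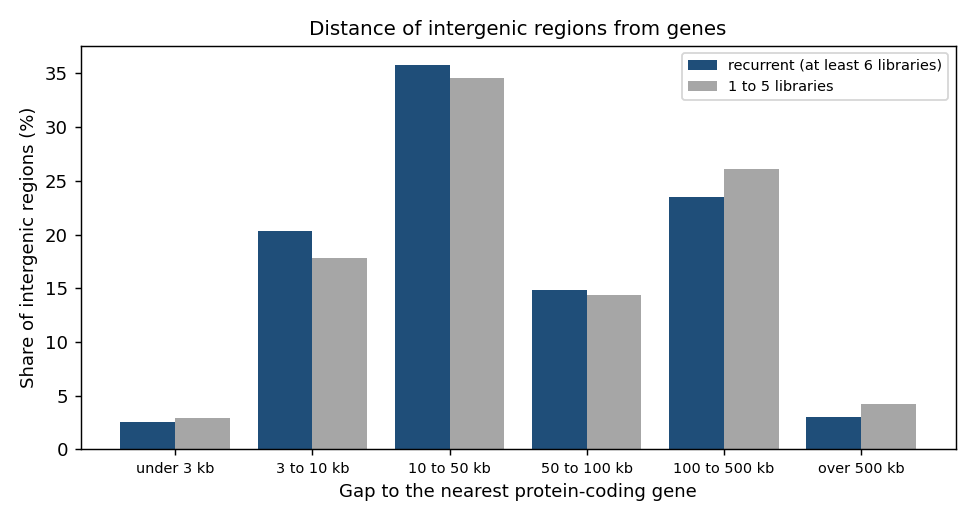
Share of intergenic regions (%) by the gap to the nearest protein-coding gene, for the 3931 recurrent regions and the 39972 regions in 1 to 5 libraries. Both sets peak at 10 to 50 kb, with 35.8% and 34.6%.

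The regions were not spread evenly. Of all 3931, 2244 (57.1%) had another within 50 kb, and 295 runs of 3 or more neighbours held 1278 regions. The largest run had 32 regions in 230 kb of chromosome 8 beside Gm31371 and Gm15319, and 31 of them consisted mostly of repeated words. Runs of 25 regions near Gm21119 on the same chromosome and of 21 near Gm17019 and Speer4e on chromosome 5 were repeated throughout. Others were mostly unique: 24 regions on chromosome 17 in the major histocompatibility complex beside H2-T3 (3 of them repeated), 14 on chromosome 9 beside Ctnnb1, the gene of β-catenin (1 repeated), and 10 on chromosome 5 beside Gm26897 (0 repeated). Counted by nearest gene, the regions belonged to 2269 genes. After Gm31371 (30 regions) and Gm21119 (25), Vrk1, a nuclear kinase gene, had 16, Med13l, a subunit of the Mediator kinase module, 15, and the transcription factor genes Sall3, Sox14, Tbx3 and Klf4 had 12, 12, 10 and 9. Of these, 3, 2, 1 and 0 were mostly repeated.

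Repeated sequence was common, more so than at genes. More than 50% of the 50-base words occurred elsewhere in the genome in 1205 regions (30.7%), against 22.9% of the less recurrent intergenic regions, 23.2% of the recurrent gene-body regions and 7.67% of the promoter regions. The share of mostly repeated regions was 29.8% in 6 to 11 libraries, 31.5% in 12 to 23 and 35.9% in all 24. Of the regions at least 200 bases wide, 294 of 3631 (8.10%) had a tandem repeat at their centre, with more than 50% of the 12-base words there found again within 200 bases, against 358 of 9996 (3.58%) among the less recurrent. In all 24 libraries it was 23 of 142 (16.2%). Words of the mitochondrial genome were found in 7 regions, and 25-base words of the ribosomal locus in 4. That search covered the locus on chromosome 17 and 420 bases of 28S ribosomal RNA, so regions of other 28S sequence are not counted. The best marked of the mitochondrial copies, at chr12:97061437-97061787 and 1141 kb from Galc, was covered between 82.1% and 99.7% in every library, with a median enrichment over the local background of 10.0-fold. What part shared reads have in these peaks was not tested. In CpG content the regions stood between the other intergenic regions and promoters. The median ratio of observed to expected CpG was 0.25, against 0.17 in the less recurrent intergenic regions, 0.33 in gene bodies and 0.53 at promoters, and it went from 0.22 in 6 to 11 libraries to 0.41 in all 24. These sets also differed in width, and what part width has in the ratios was not tested. At the same time 40 regions shared both their width and their covered length in every library with another region, in 18 sets of up to 4, so that the count of 3931 holds copies of one another.

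Among the 145 regions found in all 24 libraries, 45 held no repeated 50-base word at all, and several of these lay near developmental genes. The one with the largest covered length was at chr17:47973347-47975622, 48.7 kb from Foxp4, a forkhead transcription factor gene. Peaks covered 31.5%, 66.4% and 61.8% of it at DIV1, 44.5%, 30.5% and 48.1% at DIV7, 76.8%, 79.3% and 65.9% in DMSO and 42.4%, 11.3% and 26.2% in GSK-126. The DIV1 and DIV7 values overlapped, and all 3 GSK-126 values lay under all 3 of DMSO. A region of 1587 bases at chr14:46397707-46399293 lay 7.04 kb from Bmp4, which encodes a secreted patterning signal. Its coverage was 69.9% ± 31.6 at DIV1 and 27.9% ± 9.3 at DIV7, and 66.0% ± 15.5 in DMSO against 57.1% ± 17.8 in GSK-126 (SD, n = 3). The spread at DIV1 came from replicate 1, at 33.9%, and the drug groups overlapped. Near Irx2, a homeobox gene, a region inside the lincRNA D730050B12Rik was covered to 65.5% ± 1.1 in DMSO and 33.7% ± 37.5 in GSK-126, with replicate 1 at 76.9% and replicates 2 and 3 at 14.3% and 9.80%. Near Sox8, a SOX factor gene of glial and neural crest lineages, coverage was 66.2% ± 28 in DMSO and 23.5% ± 14.6 in GSK-126, again with overlap. The next 2 regions, also found in all 24 libraries, held a few repeated words (1.07% and 2.76%). Near Tshz3, a zinc-finger homeobox gene, coverage was 36.5% ± 5.8 and 12.1% ± 3.1, without overlap. A region only 17 bases past the end of Efna2, an ephrin ligand gene, was covered to at least 41.0% in every library. Coverage in these sentences comes from all deposited peaks, where the GSK-126 lists are the shorter ones.

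The recurrent regions were also counted by the kind of nearest gene, beside the share of the other intergenic regions. Homeodomain and paired-domain factors were nearest to 131 regions (3.33%, against 3.26%), among them 7 each for Barx2 and Pou3f3. Other cell fate transcription factors were nearest to 5.11% of the regions, against 4.15%, led by Sall3 and Sox14. Chemosensory receptors accounted for 61 (1.55%, against 1.42%), 38 of them mostly repeated, and immune genes for 53 (1.35%, against 1.5%), led by H2-T3 with 7. Signalling ligands were nearest to 36 (0.92%, against 0.99%), with 5 for Bmp7, synaptic adhesion molecules to 38 (0.97%, against 1.13%), axon guidance genes to 32 (0.81%, against 1.05%), and keratins, skin and defence genes to 27 (0.69%, against 0.71%). Ion channels were nearest to 31 (0.79%, against 0.89%), transmitter receptors to 31 (0.79%, against 1.24%) and cadherins to 29 (0.74%, against 1.20%). Markers of precursors and early granule neurons were nearest to 17 regions (0.43%, against 0.62%), 10 of them at Mki67, the proliferation marker gene, whose regions lay 77.5 to 525 kb away, and 4 at Myc. Genes of maturing granule neurons had 2 (0.051%, against 0.12%), both at Grm4, a glutamate receptor gene. Glial and vascular markers had 17 (0.43%, against 0.40%), such as Olig1 and Olig2, and markers of Purkinje cells, interneurons and unipolar brush cells had 10 (0.25%, against 0.22%). A nearest gene is a position only, with no claim that the region acts on it.

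Next, the number of recurrent regions with a peak was compared between groups. In all deposited peaks it was 1142, 2586 and 2278 at DIV1, 1083, 2346 and 3180 at DIV3, 2363, 1987 and 2635 at DIV5 and 1186, 1236 and 1855 at DIV7. DIV7 lay under DIV5 in all 3 libraries, while DIV1 and DIV3 overlapped every other day. The GSK-126 libraries held 1666, 1077 and 1239 regions and their DMSO controls 2462, 2723 and 2420, so that these groups did not overlap (difference -1208 regions). GSK-J4 gave 1446, 1549 and 2060 against 1769, 1522 and 1701. In a two-sided exact permutation test 3 against 3 libraries cannot go below p = 0.10. DIV7 against DIV5 and GSK-126 against DMSO both reached that bound, with 0.39 after Benjamini-Hochberg adjustment over 35 tests. In lists of equal length GSK-126 had 972 ± 102.6 regions against 956 ± 46.5 in DMSO (SD, n = 3, exact permutation p = 0.90). These lists were cut to the same summed length, which would take out a loss across all peaks. DIV7 there had more regions than DIV1, 1099 ± 67.9 against 853 ± 122, without overlap (exact permutation p = 0.10, adjusted 0.44). The cut lists as a whole held 4386, 5381 and 3943 peaks at DIV7 and 4359, 2770 and 2837 at DIV1. The covered length within the regions was alike, 0.287 Mb ± 0.010 at DIV7 and 0.286 Mb ± 0.016 at DIV1. The higher count is therefore not particular to these regions.

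The share of all covered length that fell into the recurrent intergenic regions was between 18.7% and 25.5% over the 24 libraries. The lowest value came from DIV1 replicate 2 (5.19 Mb called) and the highest from DIV7 replicate 1 (1.25 Mb). By group, the share was 24% ± 1.56 at DIV7 and 21.4% ± 2.88 at DIV1 (exact permutation p = 0.30), and 22.1% ± 2.26 in GSK-126 against 20.8% ± 1.16 in DMSO (SD, n = 3, exact permutation p = 0.40). With equal length the last pair turned round, 23.7% ± 2.00 against 27.8% ± 1.23, without overlap (exact permutation p = 0.10, adjusted 0.44). The mean enrichment of peaks in the regions was 3.69 to 4.68-fold and lay above that of all other peaks (3.47 to 4.17-fold) in 24 of 24 libraries. The regions were chosen by repeated calls and the other peaks include those found in few libraries, so this is a description only. Within the regions, the part made of mostly repeated sequence took up a varying share of the covered length. This share was 22.4% ± 5.15 at DIV1, 24.3% ± 5.74 at DIV3, 26.7% ± 3.5 at DIV5 and 34.4% ± 5.01 at DIV7 (exact permutation p = 0.012 for the slope of 1.91 percentage points a day, adjusted 0.39), and 40.4% ± 6.84 in GSK-126 against 27% ± 0.82 in DMSO, without overlap (SD, n = 3, exact permutation p = 0.10, adjusted 0.39). With equal length, GSK-126 gave 45.1% ± 3.51 and DMSO 41.7% ± 0.83, which differed by less than the spread of the drug group, and the slope was 0.81 points a day (exact permutation p = 0.042, adjusted 0.44).

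**Figure D3:**
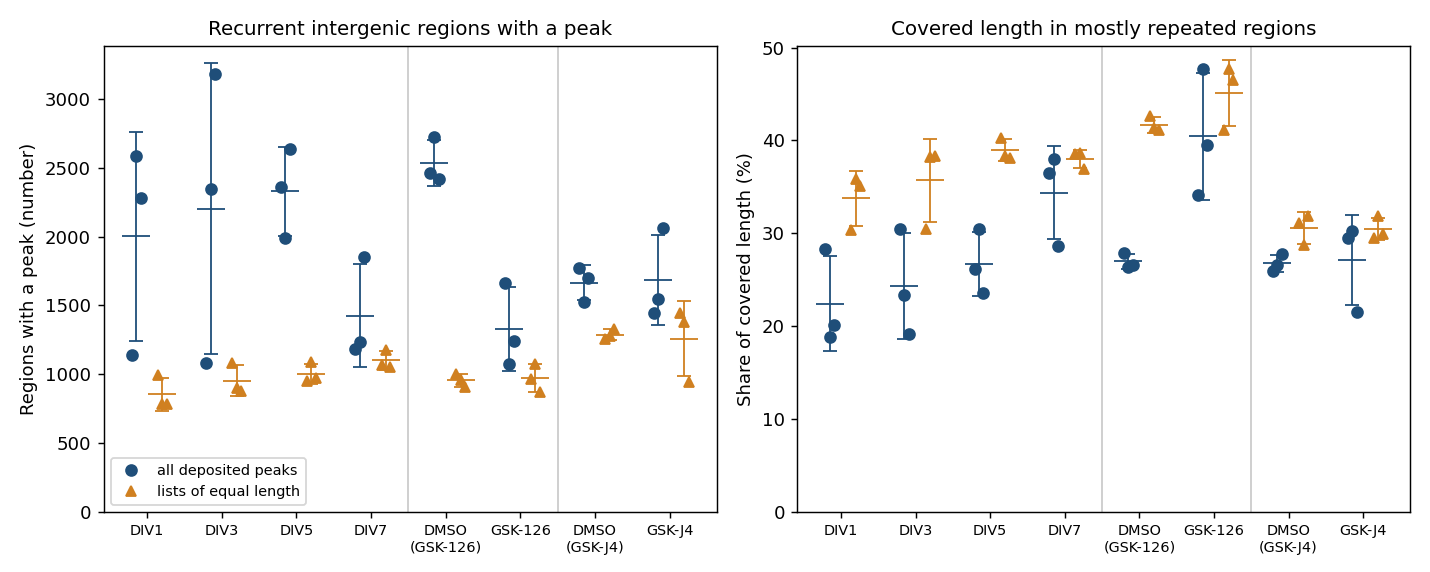
Left, number of recurrent intergenic regions with a peak. Right, share (%) of their covered length that lay in regions of mostly repeated sequence. Each point is a library, horizontal marks with bars give mean and SD (n = 3), circles use all deposited peaks and triangles lists of equal length; GSK-126 lies under DMSO on the left in the circles only, with 1327 ± 304 against 2535 ± 164 regions.

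Which regions were lost over time was asked first by presence. Of the 825 regions with a peak in all 3 DIV1 libraries, 326 kept it in all 3 DIV7 libraries and 151 (18.3%) had none, whereas 43 went from none to all 3. The loss was 13.8% from DIV5 to DIV7, 1.70% from DIV1 to DIV3 and 3.17% from DIV3 to DIV5. From DIV1 to DIV7 it was 21.0% of the regions with mostly unique words and 11.4% of those with repeated words, beside 16.5% at promoters and 20.9% in gene bodies. The 151 lost and 43 gained became 29 and 70 in lists of equal length, so that the direction of the balance depends on how much was called, and 578 were lost when DIV1 replicate 1, a short list, was left out. Among those lost with the largest covered length were regions 87.9 kb from Eomes, a T-box factor that marks unipolar brush cells, 24.2 kb from Smad6, an inhibitor of BMP signalling, 44.0 kb from Msrb3, 31.4 kb from Gtsf1l and 5.68 kb from Gm9945. The region near Eomes was covered to 44.1%, 54.1% and 64.3% at DIV1 and not at all at DIV7. It had a peak in all 3 libraries of DIV5, and in all 3 of GSK-126 and of its DMSO control, which were harvested on that day. Gained were regions 35.7 kb from Tusc3, 7.67 kb from Meis1, a homeobox gene, 1.36 kb from Gm3411, 423 kb from Cmpk2 and 38.2 kb from Pcdh18, a protocadherin gene. The region near Meis1 had a peak in all libraries of DIV3, DIV5 and DIV7, and at DIV7 these covered 52.9%, 15.8% and 53.0% of it.

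Coverage was then tested region by region with limma on lists of equal length. Of the 3931 regions, 1646 had coverage in at least 3 time-course libraries and could be tested. For DIV7 against DIV1, 8 were higher and 4 lower (adjusted p under 0.05), beside 0.333% higher and 0.422% lower of all 4503 regions tested. Of these, 6 of the higher and 1 of the lower regions had no coverage outside the 3 libraries of the group where they were high, so they passed the filter through that group alone and had to differ; their number is no support for a change. The median 95% interval of a difference reached 38.8 percentage points to each side, so only large changes could be called. The 8 higher regions were 99 to 581 bases wide and all of mostly repeated sequence. They lay 11.3 kb from Polr3b (a subunit gene of RNA polymerase III), 102.3 and 108.2 kb from Nr5a2 (a nuclear receptor gene), 7.23 kb from Abo, 5.45 kb from Elavl2 (a neuronal RNA-binding protein gene), 7.47 kb from Gm3594, 31.8 kb from Sulf2 and 13.6 kb from Gm10128. The region near Elavl2, at chr4:91245066-91245310, was covered to 66.9%, 93.5% and 97.6% at DIV7 and not at all at DIV1, in lists of equal length and in all peaks alike (adjusted p = 0.0027 and 0.092, limma). The regions near Nr5a2 behaved in the same way, whereas 5 of the 8 had a peak in 1 or more DIV1 libraries when all peaks were used. Lower at DIV7 were regions 13.5 kb from Gm47283 on chromosome Y, 328 kb from Gm9195, 138 kb from Snx19 and 37.5 kb from Ccr1, a chemokine receptor gene. The region near Ccr1, at chr9:123923196-123924586, had 20% repeated words and fell from 98.6%, 94.6% and 75.7% at DIV1 to 12.7%, 0% and 12.3% at DIV7 (difference -81.3 points ± 12.9, SE, adjusted p = 0.014, limma).

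Between neighbouring days the calls were few. DIV3 against DIV1 gave 1 higher region, that near Elavl2 (background 0.0444%), and 1 lower, that near Gm9195 (0.133%), which was covered at DIV1 alone. DIV5 against DIV3 gave 0 (background 0%), although 72 (4.37%) had a positive and 38 (2.31%) a negative difference at a p under 0.05 before adjustment in limma, beside 4.02% and 2.24% of all regions tested. DIV7 against DIV5 gave 7 higher (0.222%) and 3 lower (0.0888%), of which 6 and 1 passed the filter through the high group alone. Of the higher ones, 6 were also called against DIV1, and the other one lay 15.5 kb from Vax2, a homeobox gene, in Vax2os. Among the lower ones were regions near Phf6, a chromatin protein gene, and Gm10340. The region near Phf6, at chrX:52886549-52886702, had no repeated word and was covered to 74.0%, 97.4% and 88.3% at DIV5 and not at all at DIV7. A linear slope over the 4 days was called for 0 regions (background 0%), although 6.26% had a positive and 4.31% a negative slope at a p under 0.05 before adjustment in limma, beside 5.71% and 6.82% of all regions tested. None of the regions called in the time course in lists of equal length passed the test with all deposited peaks. Leaving out 1 library left 1 to 21 calls for DIV7 against DIV1, with 1, 3 and 2 without DIV7 replicates 1, 2 and 3, where only 2 of the 8 higher regions could still be tested.

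Of the comparisons made here, GSK-126 against DMSO had the most recurrent regions lost in all deposited peaks. Of 1402 regions with a peak in all 3 DMSO libraries, 443 kept it in all 3 GSK-126 libraries, 348 (24.8%) had it in none, and 10 regions went the other way. The loss was 31.5% among regions of mostly unique words (300 of 952) and 10.7% among repeated ones (48 of 450), beside 21.4% at promoters and 24.3% in gene bodies. The 10 gained were 1.81% of the regions in all 3 GSK-126 libraries, beside 0.40% at promoters and 0.58% in gene bodies. In lists of equal length 27 regions were lost and 36 gained. Without GSK-126 replicate 3 the number lost was 446. Lost with the largest covered length were regions 5.77 kb from Mrpl46, 48.2 kb from Lsm5, 36.8 kb from Uqcrc2, 8.01 kb from 1600014C10Rik and 10.7 kb from Dct, an enzyme gene of melanin synthesis. The region near Uqcrc2, a gene of mitochondrial complex III, was covered to 64.4%, 55.1% and 56.2% in DMSO, and it had a peak in every library outside the GSK-126 group. Gained were regions 65.1 kb from Barx1, a homeobox gene, 125 kb from Rragc, 17.1 kb from Vmn2r103, 24.1 kb from Zfp868 and 11.2 kb from Hsd17b13. Of the 74 regions near cell fate factors that all 3 DMSO libraries shared, 20 had no GSK-126 peak and 21 had all 3. Of the 43 near homeodomain factors these numbers were 12 and 11.

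**Figure D4:**
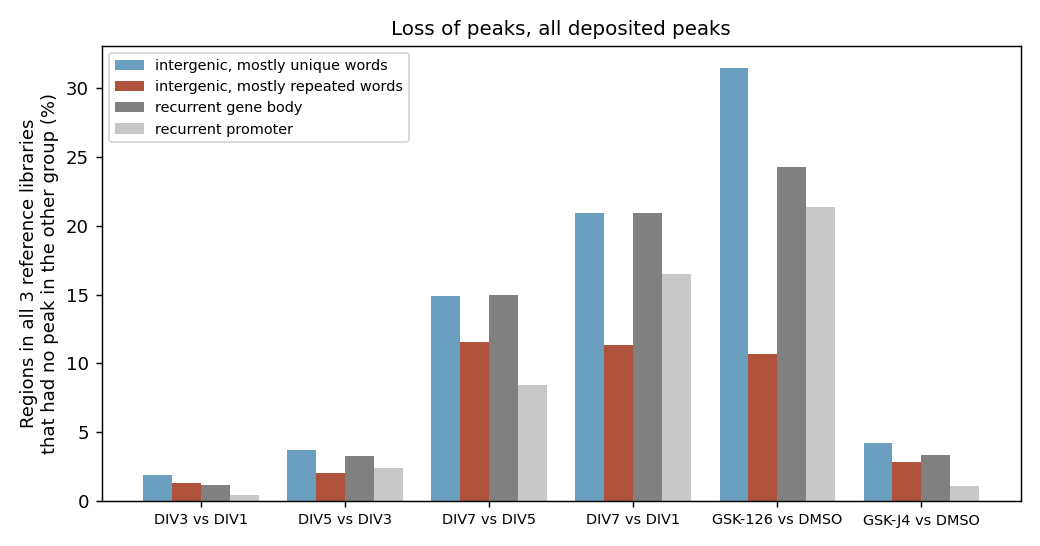
Share (%) of regions with a peak in all 3 reference libraries that had none in the 3 libraries of the other group, from all deposited peaks, for recurrent intergenic regions of mostly unique or mostly repeated sequence and for recurrent regions in gene bodies and at promoters. Under GSK-126 the intergenic bars stand at 31.5% and 10.7%.

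In the test on lists of equal length, 883 regions could be tested, of which 12 were higher and 16 lower with GSK-126, beside 1.17% higher and 1.97% lower of all 2391 regions tested (limma, adjusted p under 0.05; median interval 42.3 percentage points to each side). Of these, 11 higher and 10 lower regions were covered in no library of the other group and passed the filter through the high group alone, so that their number is no support for a change. Testing every region covered in at least 1 library gave 0 calls, and so did leaving out any 1 of the 6 libraries, which also took most regions high in its group out of the test. Of the 28 regions, 23 were of mostly repeated sequence, and the pair near Gm3526 and Gm3383 and the pair near Zfp980 and Zfp600 had the same values in each library. All 16 lower regions were also lower in all deposited peaks, without overlap between the groups, and 13 of them passed the test there. The full lists contain the cut ones and were longer in DMSO, so this is no separate support. The 8 with the smallest adjusted p lay near Myc, Edem1, Prr15, Gjb2, Cdh4, Habp2, Adora1 and Nedd1. The region 646 kb from Edem1, at chr6:109505262-109505464, was covered to 91.1%, 78.3% and 90.1% in DMSO and had no GSK-126 peak (adjusted p = 0.015, and 0.016 in all peaks, limma). In both forms of the lists it passed the filter through DMSO alone and had to differ, so these p-values are no support for a change. The region 22.1 kb from Adora1, the gene of the adenosine A1 receptor, was covered to 95.2%, 86.4% and 86.0% in DMSO and to 29.6%, 0% and 12.4% in GSK-126, and all of its words were repeated. Fully unique were a region 522 kb from Nedd1 inside the lincRNA Rmst, at 76.6%, 52.0% and 74.5% in DMSO against 0% in 3 of 3, and, chosen after its values were seen, one 60.3 kb from Rmi1, at 71.2%, 52.8% and 45.5% against 0%. Both regions had passed the filter through DMSO alone. In all peaks, replicate 1 of GSK-126 covered 17.9% of the one in Rmst. The region 171 kb from Myc, the proto-oncogene of proliferating precursors, also passed the filter through DMSO alone. It had 87.5% repeated words, and in all peaks GSK-126 replicate 1 covered 73.6% of it.

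The 12 higher regions are given beside all deposited peaks as well, where the DMSO lists were the longer ones. The 8 with the smallest adjusted p lay near Gm36079, Gm10354, Ttc29, Esx1, Speer4e, Gm31371, Cdk6 and Gm21860. In all, 10 of the 12 had a peak in all 3 DMSO libraries when all peaks were used, and 2, near Fcgr3 and Cdk6, then had the lower mean in GSK-126. Only 2, named after their values were seen, were called higher in both forms of the lists. One lay 5.67 kb from Arhgap19 and was covered to 94.0%, 94.0% and 90.5% in GSK-126 against 49.0%, 44.0% and 36.5% in DMSO (difference 49.7 points ± 8.1, SE, adjusted p = 0.039, limma). The other lay 125 kb from Rragc, a gene of the nutrient-sensing Rag GTPases, at 38.0%, 52.3% and 56.9% against 0% in 3 of 3 (adjusted p = 0.048, limma). The region near Rragc passed the filter through GSK-126 alone in both forms and had to differ, so its call is no support for a change. The stretches of the regions near Edem1 and Arhgap19, called in opposite directions in both forms of the lists, are shown to compare their sequence (plus strand, CpG pairs in capitals).
Near Edem1, lower with GSK-126, chr6:109505262-109505461: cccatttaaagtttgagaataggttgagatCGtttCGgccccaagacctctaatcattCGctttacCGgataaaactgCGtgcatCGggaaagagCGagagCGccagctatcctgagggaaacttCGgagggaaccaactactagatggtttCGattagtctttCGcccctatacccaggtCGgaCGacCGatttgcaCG
Near Arhgap19, higher with GSK-126, chr19:41760720-41760919: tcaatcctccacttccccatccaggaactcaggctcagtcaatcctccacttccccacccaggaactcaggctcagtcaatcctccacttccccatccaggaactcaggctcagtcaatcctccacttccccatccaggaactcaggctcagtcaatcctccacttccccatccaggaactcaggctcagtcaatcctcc
The first held 15 CpG pairs and no repeated 12-base word, and its letters resemble 28S ribosomal RNA, of which the ribosomal sequence searched here held only a fragment of 420 bases. The second held 0 CpG pairs and a tandem repeat that took in 93.7% of its words.

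**Figure D5:**
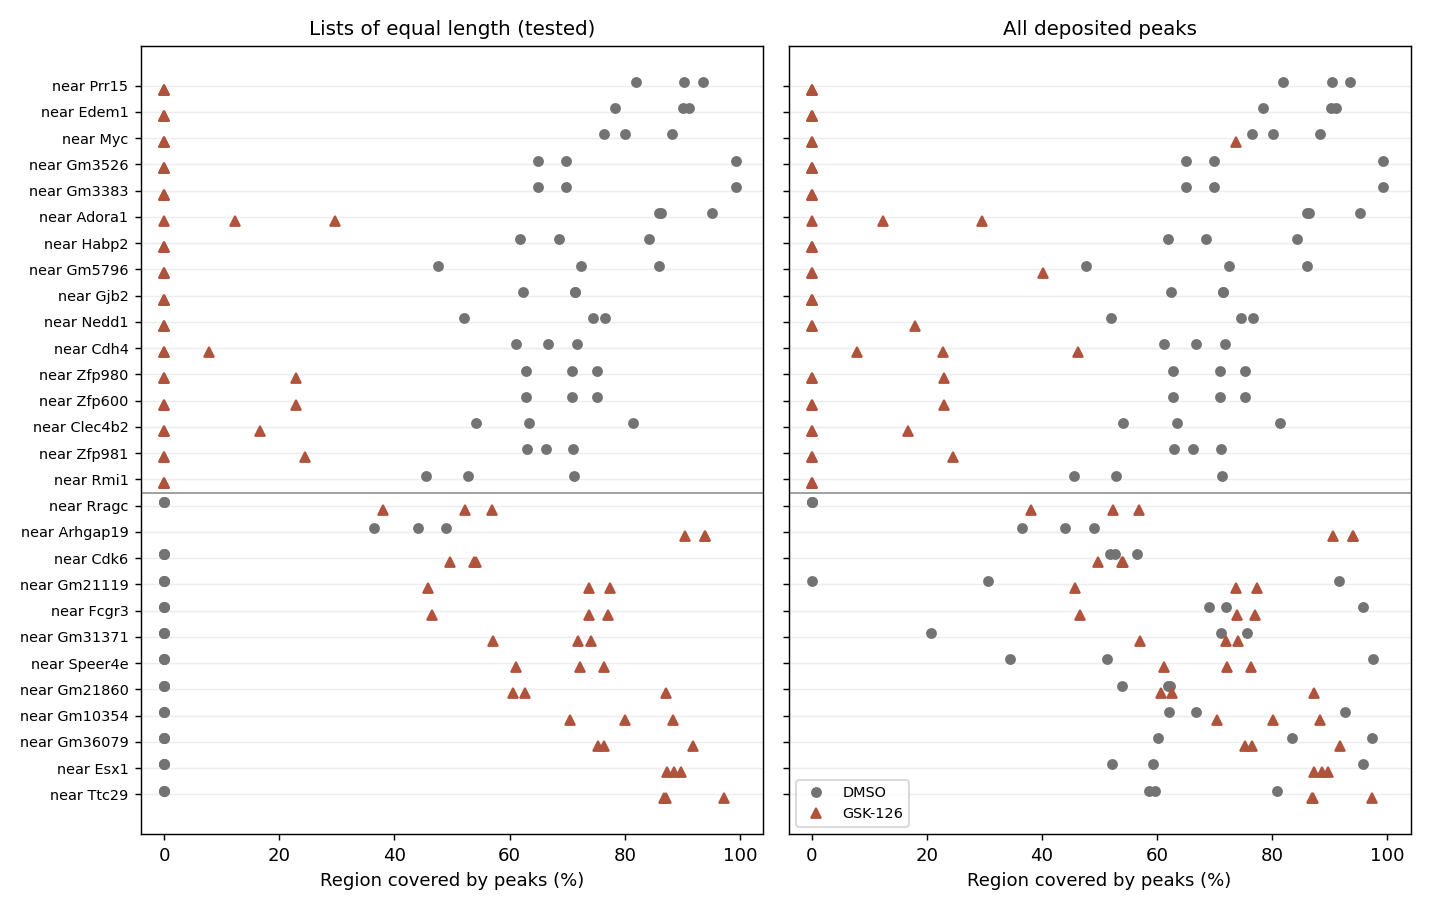
Percentage of each of the 28 called regions that peaks covered in the 3 DMSO (circles) and 3 GSK-126 libraries (triangles), in lists of equal length (left) and in all deposited peaks (right). Regions above the line were called lower and those below it higher; 10 of the 12 higher regions have DMSO peaks in all 3 libraries on the right.

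With all deposited peaks, 2159 regions could be tested, and 186 were lower and 12 higher with GSK-126, beside 11.4% lower and 0.441% higher of all 6120 regions tested. Of the 186 lower regions, 131 had no coverage in any GSK-126 library and passed the filter through DMSO alone. The median difference was -17.6 percentage points in the recurrent intergenic regions and -19.6 over all regions, against -3.77 and -2.73 in lists of equal length. Of the lower regions 148 were among 1372 of mostly unique words and 38 among 787 of repeated ones. By nearest gene, 10 of 122 tested regions near cell fate factors were lower, 4 of 67 near homeodomain factors, 3 of 17 near transmitter receptors, 3 of 19 near ion channels, 2 of 18 near synaptic adhesion genes, 2 of 12 near cadherins, 2 of 11 near early granule genes and 1 of 40 near chemosensory receptors, where 1 was also higher. None was lower among 37 near immune genes, 21 near signalling ligands, 19 near axon guidance genes, 15 near keratin, skin and defence genes, 7 near Purkinje cell and interneuron markers, 5 near glial and vascular markers and 1 near maturing granule genes. Leaving out GSK-126 replicate 1 left 86 lower regions, and leaving out any other library left 0; without a DMSO library, the 131 could no longer be tested. Since the GSK-126 lists were shorter as a whole, how much of this loss was particular to the regions cannot be told apart from how much was called.

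For GSK-J4 the regions kept about the same numbers. Of 715 regions with a peak in all 3 of its DMSO libraries, 425 kept it in all 3 GSK-J4 libraries and 27 (3.78%) had none, whereas 38 went from none to all 3. The loss was 1.06% at promoters and 3.31% in gene bodies. The 38 gained were 5.75% of the regions in all 3 GSK-J4 libraries, beside 1.52% at promoters and 3.97% in gene bodies. Lost were regions near Tbc1d22a, Sipa1l3, Rpl38, Foxd3, a forkhead gene, and Spaca7, and gained were others near Mvk, Pomp, Zdhhc25, Nfe2l3 and Gm3526. In the test 3 of 1204 regions were higher and 0 lower, beside 0.197% higher and 0.0845% lower of all 3552 (limma, adjusted p under 0.05), and before adjustment 35 (2.91%) and 45 (3.74%) passed 0.05, beside 2.36% and 2.76% of all. All 3 were covered in the GSK-J4 libraries alone and passed the filter through them, and testing regions covered in at least 1 library gave 0 calls. The 3 were 71 to 86 bases wide, of mostly repeated words, and lay 365 kb from Gm8797, 155 kb from Sox14, a SOX factor gene, and 13.4 kb from P2ry2, a purine receptor gene. The region near Sox14 was covered to 97.7%, 83.7% and 77.9% with GSK-J4 and to 0% in the 3 controls, with the same values in all deposited peaks (adjusted p = 0.025 and 0.042, limma). Leaving out any 1 of the 6 libraries left 0 calls, and without a GSK-J4 library none of the 3 could be tested.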

How the data were processed

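H3K27me3 was measured by CUT&RUN in 24 libraries of mouse CGNs (8 groups of 3). Per the study's methods and processing notes, the authors checked the reads with FastQC, trimmed them with Trimmomatic 0.38, mapped them to mm10 (STAR 2.7.2b) and ran MACS2 2.1 in broad mode on each library separately; a control for the calls is not given in the sources used here. The deposited lists give for each peak its fold enrichment (a ratio) and its p- and q-value as −log10; the lowest −log10 q was 1.00. No read counts are listed, so depth is unknown and no counting error can be given.

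From these lists, peaks that overlapped were merged, and a region was called intergenic where it met no protein-coding gene of GENCODE vM21 (21951 genes) and no window of 3 kb around a 5′ end. The nearest gene is the protein-coding body with the smallest gap. Uniqueness was taken from 50-base words every 10 bases, counted on both strands over the 66 primary sequences of GRCm38. For coverage, each library was cut to its most significant peaks up to the shortest list of its experiment (1.11 Mb for the time course, 1.07 Mb for GSK-126, 1.40 Mb for GSK-J4), the percentage of each region covered was fitted with limma 3.58.1 (R 4.3.3, robust empirical Bayes) over all regions covered in at least 3 libraries, and p-values were adjusted over all of them (Benjamini-Hochberg, threshold 0.05). The fit was tested on simulated data. Counts per library were compared by exact permutation (20 arrangements for 3 against 3, 369600 for the slope). The share in repeated sequence was added after values had been seen. Regions named are those with a peak in all 24 libraries, the 5 widest, the 5 farthest from genes, up to 8 called regions per direction and comparison by adjusted p whose groups do not overlap, up to 5 per direction that switched between all 3 libraries and none, by covered length, and up to 2 per gene list, by number of libraries. The regions and gene lists were chosen with earlier results of these data known. Alternatives were another ranking, other thresholds, a replicate block and leaving out each library. Some called or counted regions are not reported here by name.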

Additional observations from a re-analysis of the deposited data

How the results depend on the processing

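The cause of the differences below was not tested. The number of regions called depended on the peak lists. With all deposited peaks, 0 regions were called for DIV7 against DIV1, 0 for DIV3 against DIV1, 0 for DIV7 against DIV5 and 198 for GSK-126. With a −log10 q of at least 2 the counts were 4 for DIV7 against DIV1, 1 for DIV3 against DIV1, 2 for DIV5 against DIV3, 2 for DIV7 against DIV5, 1 for the slope and 5 for GSK-J4. Ranking by fold enrichment gave 1, 0 and 1 for DIV7 against DIV1, DIV3 against DIV1 and DIV7 against DIV5. Testing regions covered in at least 1 library gave 1 for DIV3 against DIV1, 0 for GSK-126 and 0 for GSK-J4. Within an experiment, the deviations of same-numbered libraries correlated at -0.10 to 0.14 and those of differently numbered ones at -0.17 to 0.10. Whether the numbers pair the libraries was not settled by these values. With the replicate block 1 region was called for DIV3 against DIV1, 6 for DIV7 against DIV5, 0 for GSK-126 and 0 for GSK-J4. Leaving out 1 library gave 1 to 21 calls for DIV7 against DIV1, 1 to 6 for DIV3 against DIV1, 0 to 2 for DIV5 against DIV3, 0 to 14 for DIV7 against DIV5, 0 to 2 for the slope and 0 for both drugs; regions covered in 1 group alone then fall under the minimum of 3 libraries and are not tested. The number of regions itself was 6255 with at least 4 libraries, 1568 with at least 12, 684 with a −log10 q of at least 2, and 1079 where peaks had to cover at least 0.5 of the region. Differences per library turned sign in some settings. In lists of equal length the difference in regions with a peak was 246.7 for DIV7 against DIV1, 96 for DIV7 against DIV5, 39.5 a day for the slope, 15.7 for GSK-126 and -29.7 for GSK-J4. Covered length there differed by 0.000916 Mb (DIV7 against DIV1), 0.0163 Mb (DIV5 against DIV3), 0.000953 Mb a day and -0.0153 Mb (GSK-J4), the share of covered length by -2.62 (DIV7 against DIV5) and -4.12 points (GSK-126), enrichment by -0.025 (DIV7 against DIV5), and the share in repeated regions by -0.89 (DIV7 against DIV5) and -0.13 points (GSK-J4). With a −log10 q of at least 2, regions with a peak differed by -78 (DIV5 against DIV3) and -8.33 (GSK-J4), and for GSK-J4 enrichment by -0.010 and the repeated share by -0.039 points; with at least 8 libraries GSK-J4 gave -7 regions.

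Leaving out 1 library also turned small differences. For DIV3 against DIV1 the ranges were -287.5 to 761 regions, -0.209 to 0.293 Mb, -1.07 to 1.81 points of share, -0.082 to 0.247 in enrichment and -1.19 to 4.85 points of repeated share. For DIV5 against DIV3 they were -434.7 to 613.8 regions, -0.289 to 0.213 Mb, -0.65 to 1.56 points, -0.197 to 0.0997 and -0.23 to 5.45 points. For GSK-J4 they were -166.5 to 140.5 regions, -0.0843 to 0.0734 Mb, -1.30 to 0.57 points, -0.060 to 0.119 and -1.23 to 3.15 points. The differences of GSK-126 and of DIV7 against DIV1 or DIV5 kept their sign whichever library was left out. Depth is unknown, so its part in any of these values cannot be given.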
